A study of Mus musculus with 4 samples.

Results

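H3K27me3, trimethylation of lysine 27 of histone H3, was profiled by ChIP-Seq in macrophages from the aorta of mice kept in chronic intermittent hypoxia (CIH) or in room air (RA), and the peaks described here are those that the authors paired with Fzd7, Dact2, Irx1, Cdh4, Pcdh20, Rprm or Galnt13. There were 7 such peaks among the 146 peaks of the deposited H3K27me3 list. The members were selected on the authors' call of a difference between the CIH and RA libraries and on the names of the paired genes, so the direction of each peak is a description and not a finding. The list gave 3 of the 7 peaks as higher in CIH and the other 4 as higher in RA. Over the whole list, 36.3% of the peaks were higher in CIH.

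The mice were of the strain C57BL/6J, and their age is not given in the labels. Exposures lasted 20 weeks. In CIH, 90 seconds at 6.1% oxygen alternated with 90 seconds at 21% during the light phase, and RA mice breathed 21% oxygen throughout. Cells were taken by magnetic selection for CD11b, a surface protein that monocytes and neutrophils carry as well as macrophages. There were 4 libraries, 1 for each of H3K27me3 and H3K9ac in each exposure, with no input library among them. The title of the RA library of H3K27me3 spells the mark differently, and its antibody label was followed. Replicates are thus lacking, no value here carries a replicate error, and no test was made. The deposited lists hold peaks that differed between CIH and RA, with their position on the mouse build mm9 and the direction of the difference, so the level of a mark at a gene cannot be read from them. None of 9 macrophage marker genes, and none of 21 marker genes of other cell types, was paired with an H3K27me3 peak. In the part of the H3K9ac pairing that was held, 1 of the 9, Mertk, had a peak, higher in RA, and none of the 21 did, so the labelled cell type could not be checked. A change in the share of cells that carry a mark and a change in its amount per cell cannot be told apart in such libraries.

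H3K27me3 is written by the Polycomb complex PRC2 and is known for covering the promoters of developmental regulators that are silent in a differentiated cell, in particular promoters rich in CG dinucleotides. H3K9ac, acetylation of lysine 9, marks active promoters and enhancers. The 7 genes have different roles. Fzd7 encodes a Frizzled receptor for Wnt ligands and Dact2 a Dapper protein that binds Dishevelled and dampens Wnt and TGF-β family signals. Irx1 encodes a homeodomain transcription factor of the Iroquois family. Cdh4 and Pcdh20 encode the adhesion proteins R-cadherin and protocadherin 20. Rprm encodes Reprimo, a mediator of p53-dependent arrest in G2, and Galnt13 an enzyme that starts mucin-type O-glycans, so these last genes are neither developmental regulators nor adhesion genes by their own function.

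Sequences of the 3 peaks higher in CIH are shown because each lies on an H3K9ac peak, and those of the Dact2 and Cdh4 peaks because they stand for the peaks higher in RA with the most and nearly the fewest CG dinucleotides per 100 bases. They are given on the plus strand of mm9, 5′ to 3′, with each CG dinucleotide in capitals. Letters that the authors' sequences give as N at the start of a peak are left out.
Fzd7 peak higher in CIH, chr1:59434000-59434250: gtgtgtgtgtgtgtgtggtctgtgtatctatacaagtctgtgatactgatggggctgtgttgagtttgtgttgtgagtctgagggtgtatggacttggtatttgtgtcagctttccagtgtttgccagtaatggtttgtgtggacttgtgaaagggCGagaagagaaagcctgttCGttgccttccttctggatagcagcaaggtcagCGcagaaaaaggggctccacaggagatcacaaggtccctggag
Pcdh20 peak higher in CIH, chr14:87996512-87996750: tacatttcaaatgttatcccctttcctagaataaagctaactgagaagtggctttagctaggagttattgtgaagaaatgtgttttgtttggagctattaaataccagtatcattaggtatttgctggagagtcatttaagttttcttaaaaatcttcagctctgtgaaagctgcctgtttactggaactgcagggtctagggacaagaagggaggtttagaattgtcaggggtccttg
Rprm/Galnt13 peak higher in CIH, chr2:54031401-54031700: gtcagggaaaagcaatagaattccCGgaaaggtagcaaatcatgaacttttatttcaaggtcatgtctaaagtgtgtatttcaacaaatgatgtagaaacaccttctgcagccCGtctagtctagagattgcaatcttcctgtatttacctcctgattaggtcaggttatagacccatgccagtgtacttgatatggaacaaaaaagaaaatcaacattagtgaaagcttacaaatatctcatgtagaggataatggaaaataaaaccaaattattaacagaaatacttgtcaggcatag
Dact2 peak higher in RA, chr17:14284176-14284475: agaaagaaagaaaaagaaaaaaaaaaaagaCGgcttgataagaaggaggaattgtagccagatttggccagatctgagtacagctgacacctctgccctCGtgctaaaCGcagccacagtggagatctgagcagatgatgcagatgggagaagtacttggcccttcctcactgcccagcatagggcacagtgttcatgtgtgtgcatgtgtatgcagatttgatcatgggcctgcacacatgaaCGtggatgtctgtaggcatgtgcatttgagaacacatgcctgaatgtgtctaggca
Cdh4 peak higher in RA, chr2:179606801-179607100: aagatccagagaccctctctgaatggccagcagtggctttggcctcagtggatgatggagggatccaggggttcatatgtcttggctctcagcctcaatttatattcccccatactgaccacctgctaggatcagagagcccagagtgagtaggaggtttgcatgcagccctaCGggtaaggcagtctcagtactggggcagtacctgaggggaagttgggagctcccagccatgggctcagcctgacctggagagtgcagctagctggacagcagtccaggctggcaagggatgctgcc

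The Wnt genes had a peak in each direction. The Fzd7 peak was higher in CIH and spans chr1:59433901-59434250, a width of 350 bp. Of the 53 peaks higher in CIH, 1 was wider and 13, this peak included, had that width. It is the only peak of the 7 that was paired with no second gene, which was the usual case, as 75 of the 117 peaks paired with any gene had exactly 1. The Dact2 peak was higher in RA and spans chr17:14284151-14284600, a width of 450 bp. It was also paired with the predicted gene Gm7168, which is separated from Dact2 by 3 protein-coding genes in the RefSeq gene order of GRCm38. Of 77 genes of Wnt signalling, ligands, receptors, antagonists and transducers together, Fzd7 and Dact2 were the 2 paired with an H3K27me3 peak, 1 in each direction. Of all 21900 protein-coding genes in RefSeq, 127 were paired with a peak (0.580%). The gene lists used here were built around the 7 genes, so each of these genes was bound to be found in its list and nothing is read from the counts.

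The peak of Irx1 was higher in RA. It spans chr13:72721151-72721600, is 450 bp wide and was also paired with Gm20554, a long non-coding RNA gene. Irx1 is followed in the RefSeq gene order by Irx2 and Irx4, which belong to the same Iroquois cluster and were not paired with a peak. Of a list of 66 homeobox genes, 2 were paired with a peak, Irx1 and Msx1, a regulator of limb and craniofacial development, and both peaks were higher in RA. The list is not complete, as Mixl1, Pou2f2 and Homez, which also encode homeodomain proteins, are not in it and are paired with a peak, that of Mixl1 higher in CIH and those of Pou2f2 and Homez higher in RA. The direction is thus not shared by all peaks paired with a homeobox gene.

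The peaks paired with the adhesion genes were again of both directions. The Pcdh20 peak was higher in CIH and spans chr14:87996501-87996750. At 250 bp it has the lowest width found among the 53 peaks higher in CIH, shared by 22 of them. It was also paired with Tdrd3, a neighbour of Pcdh20 with no other protein-coding gene between them, which encodes a Tudor domain reader of methylated arginine. The Cdh4 peak was higher in RA, spans chr2:179606801-179607100 over 300 bp, and was also paired with Taf4a, the neighbouring gene of a TFIID subunit. Of 54 genes of the cadherin superfamily, Cdh4 and Pcdh20, around which the list was built, were the 2 paired with a peak.

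Rprm and Galnt13, which are neighbours with no protein-coding gene between them, shared both of their peaks. The peak higher in CIH spans chr2:54031401-54031700, 300 bp, and the peak higher in RA spans chr2:54011201-54011700, 500 bp. They lie 19.7 kb apart. Since each is paired with both genes, the data do not assign either direction to Rprm or to Galnt13. The Dact2, Irx1, Pcdh20 and Cdh4 peaks were each paired with a second gene as well, so the same limit holds there. Of the 146 peaks, 20 had another H3K27me3 differential peak within 50 kb (13.7%). For 18 of these 20, the Rprm/Galnt13 peaks included, the nearest such peak had the other direction. In every other pair, however, the peaks touch or lie 50 bp apart, so none is spaced like the Rprm/Galnt13 pair. The other 5 peaks of the set had no other H3K27me3 differential peak within 1 Mb, as was the case for 118 of the 146. The nearest was 3.018 Mb away for Irx1 and 29.857 Mb away for Dact2, with Pcdh20, Fzd7 and Cdh4 between them. Galnt13 was the only 1 with a peak in a list of 22 names for enzymes of its family, older names included, and Rprm the only 1 in a list of 20 genes of p53-dependent growth arrest, both lists being built around them. None of 14 genes that write, bind or erase H3K27 methylation had a peak, beside the 0.580% of all protein-coding genes. The 7 genes and Msx1 were thus the members of these lists among the 145 genes paired with any H3K27me3 peak.

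**Figure D1:**
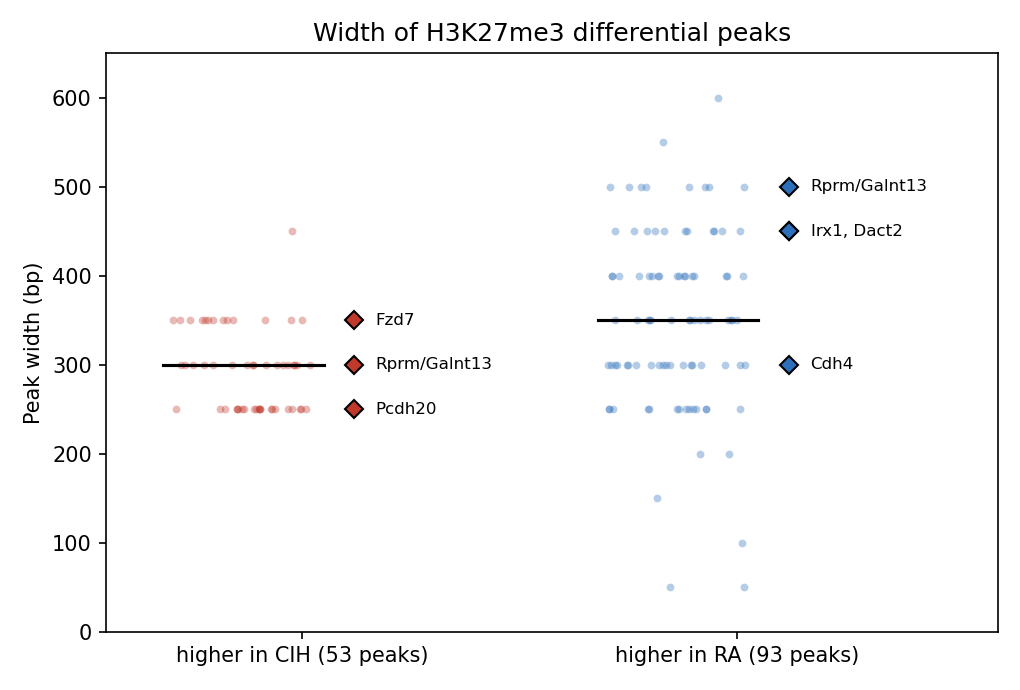
Width in bp (vertical axis) of all 146 H3K27me3 differential peaks, with pale points for single peaks, black lines for the medians and labelled diamonds for the peaks of the 7 genes. The peaks higher in CIH, on the left, have a median of 300 bp and those higher in RA, on the right, a median of 350 bp, and the Rprm/Galnt13, Irx1 and Dact2 peaks higher in RA lie at 450 to 500 bp.

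Among the peaks higher in CIH, the widths of 250, 300 and 350 bp cover the range between the quartiles of that direction, 250 to 350 bp. Among those higher in RA, the Rprm/Galnt13 peak at 500 bp was exceeded by 2 of 93 peaks, and 8 had that width. The Irx1 and Dact2 peaks at 450 bp were exceeded by 10 of 93, and 11 had that width. The Cdh4 peak at 300 bp lies at the lower quartile of that direction. All positions fall on steps of 50 bp, so widths differ by whole steps.

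The rule that chose these peaks did not use H3K9ac, but it was set with earlier results of these data known. All 3 peaks higher in CIH lie on H3K9ac differential peaks of that same direction, and none of the 4 peaks higher in RA lies on an H3K9ac differential peak of either direction. In the whole list the same difference between directions was present, in that 54.7% of the peaks higher in CIH lie on an H3K9ac peak, against 4.30% for RA, and 22.6% over both directions. The counts of the 7 peaks thus follow direction as the list does.

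The Fzd7 peak lies inside an H3K9ac peak from 59433901 to 59434800 of chromosome 1, 900 bp wide. Both begin at the same step of the 50 bp grid on which all positions fall. The Pcdh20 peak is covered over its whole 250 bp by an H3K9ac peak of 450 bp, from 87996301 to 87996750 of chromosome 14. These 2 peaks end at the same step. At Rprm and Galnt13, 250 of the 300 bases of the peak higher in CIH are shared with an H3K9ac peak of 400 bp from 54031251 to 54031650 of chromosome 2. Both marks, whose textbook roles are opposite, were thus listed as higher in CIH over all or most bases of these 3 H3K27me3 peaks, while each H3K9ac peak also covered bases outside them. Of all 29 peaks higher in CIH that lie on an H3K9ac peak, 26 were covered over their whole width. Of the 29, 17 shared a start or an end with the H3K9ac peak, again to the step of 50 bp. No input library was used here. Bases that carry both marks, in the same or in different cells, cannot be told apart from bases where every library collects reads. The paper gives a larger sequencing yield for CIH than for RA in both marks. Whether the yield bears on the shared direction was not tested.

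The neighbourhood of the peaks higher in RA held H3K9ac differential peaks at some distance. The Rprm/Galnt13 peak higher in RA had its nearest H3K9ac peak 1.7 kb away, 650 bp wide and higher in RA. The Dact2 peak had 2 within 50 kb, at 2.6 and 14.6 kb on opposite sides, each 200 bp wide and higher in RA. The Irx1 peak had 1 at 48.8 kb, 250 bp wide and higher in RA, close to the limit of the window, and the next lay 84.5 kb away. The Cdh4 peak had none within 50 kb, and its nearest, at 104.4 kb, was higher in RA. H3K9ac peaks up to 250 bp wide, as are those near Dact2 and Irx1, were higher in RA in 85.2% of the deposited H3K9ac list, against 45.6% of the wider peaks.

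At 2 loci H3K9ac differed in both directions. Within 50 kb of the Fzd7 peak there was, beside the peak it lies on, an H3K9ac peak higher in CIH of 400 bp at 21.1 kb on the side of higher coordinates and a peak higher in RA of 550 bp at 35.95 kb on the other side. Around the Rprm/Galnt13 peak higher in CIH, H3K9ac peaks higher in RA lay 17.35 kb away on the side of lower coordinates, where the H3K27me3 peak higher in RA is found, and 10.35 kb away on the other side. In order along chromosome 2 this stretch thus held H3K27me3 higher in RA, H3K9ac higher in RA, both marks higher in CIH, and H3K9ac higher in RA of 350 bp. The 7 peaks together had 10 different H3K9ac differential peaks within 50 kb, 4 higher in CIH and 6 higher in RA, between 200 and 900 bp wide. In the whole H3K9ac list, 85.2% of peaks up to 250 bp wide, as are 3 of these 10, and 45.6% of wider peaks were higher in RA. Nothing is read from the counts by direction.

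**Figure D2:**
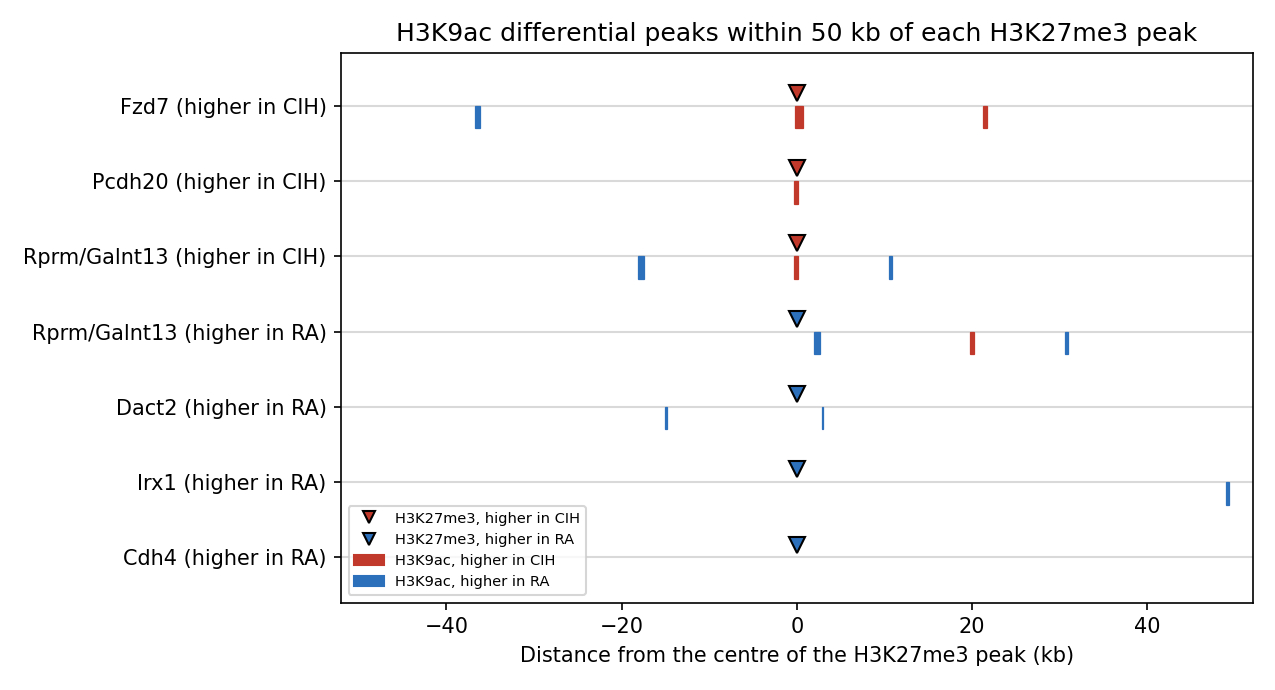
H3K9ac differential peaks (bars) within 50 kb of each of the 7 H3K27me3 peaks (triangles), against the distance from the centre of the H3K27me3 peak in kb, with red for higher in CIH and blue for higher in RA. The 3 upper triangles, higher in CIH, stand over a red bar, and the 4 lower triangles, higher in RA, stand over no bar, with the nearest bar 1.7 kb away at Rprm/Galnt13.

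In all, 6 of the 7 peaks had an H3K9ac differential peak within 50 kb, counted between nearest edges. The share was 57.5% over the whole H3K27me3 list, 75.5% among peaks higher in CIH and 47.3% among peaks higher in RA. For each of the 7 peaks the nearest H3K9ac differential peak had the same direction as the H3K27me3 peak. For the 3 higher in CIH it is the H3K9ac peak they lie on, so these restate the overlap given above. Over the whole list this held for 67.8% of the peaks, for 73.6% of those higher in CIH and for 64.5% of those higher in RA, so most listed peaks share this feature. The Rprm/Galnt13 peak pair adds 2 of the 7 from 1 place and these are not independent.

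**Figure D3:**
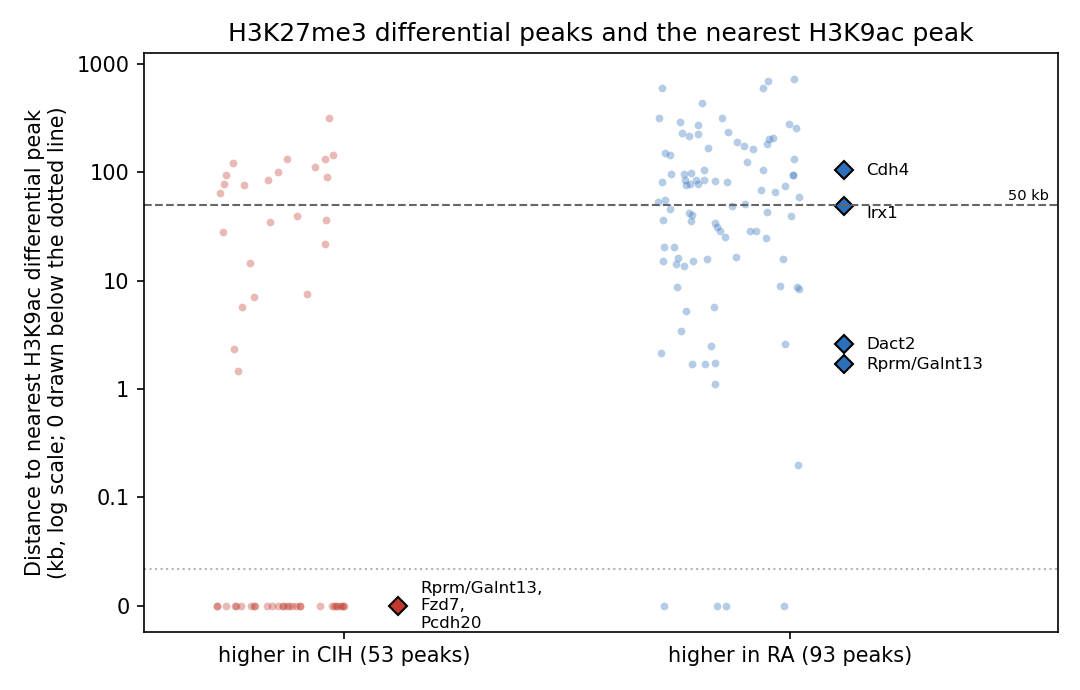
Distance in kb to the nearest H3K9ac differential peak (vertical axis, log scale, with 0 drawn below the dotted line) for all 146 H3K27me3 differential peaks, with labelled diamonds for the peaks of the 7 genes and a dashed line at 50 kb. On the left, the peaks of Fzd7, Pcdh20 and Rprm/Galnt13 higher in CIH lie at 0, drawn as a single diamond, and on the right, those higher in RA run from 1.7 kb for Rprm/Galnt13 to 104.4 kb for Cdh4.

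The peaks were poor in CG dinucleotides. In the sequences shown, 3 CG dinucleotides occur at Fzd7, 2 at Rprm/Galnt13 and 0 at Pcdh20, the peaks higher in CIH, and 4 occur at Dact2 and 1 at Cdh4, higher in RA. Per 100 bases read, the 7 peaks ranged from 0 at Pcdh20 to 1.34 at Dact2. The median was 0.501, against 0.667 over the 117 peaks for which the authors give a sequence, and 25 of the 117 held no CG dinucleotide. The promoter windows of these genes, 250 bases before to 50 after the start in RefSeq on GRCm38, were matched for 5 of the 7 genes. They held 28 CG dinucleotides for Galnt13, 24 for Fzd7, 23 for Dact2 and 19 for Rprm in 300 bases, and 4 for Pcdh20, 1.33 per 100 bases. The median was 23 for these 5 windows, against 7 over all 32851 RefSeq promoter windows. None of these 5 windows shared a run of 25 bases with any of the 7 peaks. That compares up to 399 letters of each peak with 300 letters of each promoter, and the distance of the peaks from the genes was not analysed here.

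The GC content ran from 35.7% in the Rprm/Galnt13 peak higher in CIH to 57.0% in the Cdh4 peak. The 3 peaks higher in CIH had a median of 38.5%, against 46.2% for the 4 higher in RA, and over all sequences of the authors the medians were 38.0% and 45.2%. The Cdh4 peak ranked 10 of 117 in GC content and yet held 1 CG dinucleotide in 300 bases. The Rprm/Galnt13 peak higher in CIH ranked 98. The 2 peaks of that place, 19.7 kb apart, had 35.7% GC for the peak higher in CIH and 45.6% for the peak higher in RA.

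**Figure D4:**
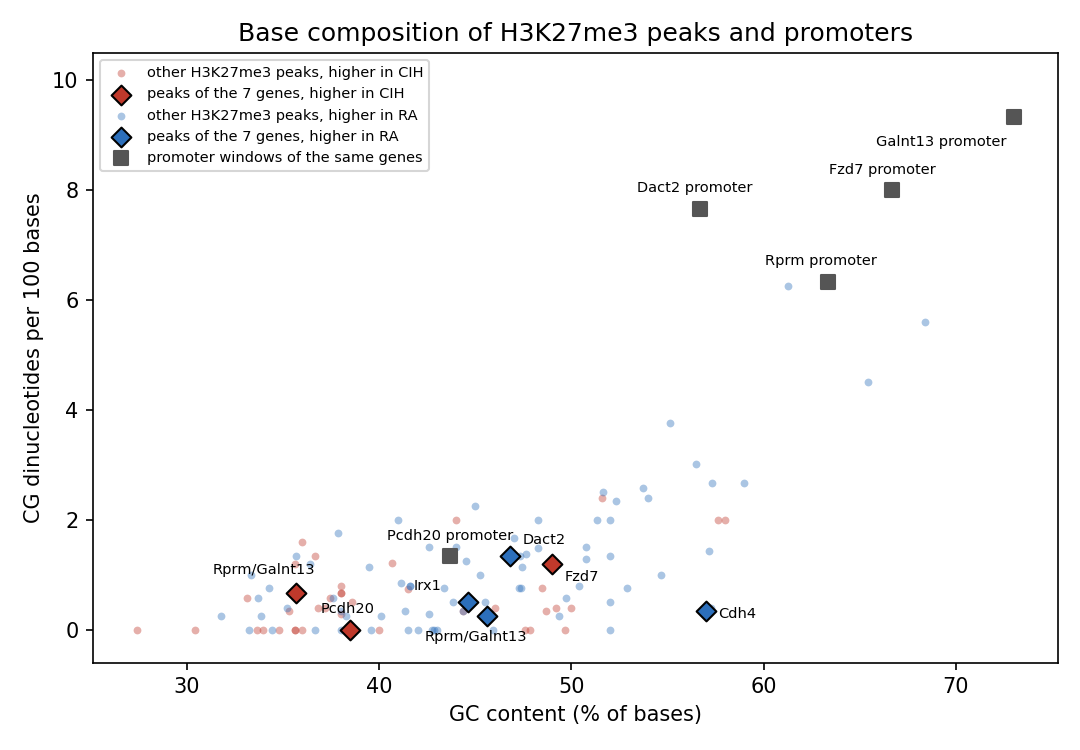
CG dinucleotides per 100 bases (vertical axis) against GC content in percent of bases (horizontal axis) for the 117 H3K27me3 peaks with a sequence, with diamonds for the peaks of the 7 genes and grey squares for the RefSeq promoter windows of 5 of the genes. All diamonds lie at or below 1.34 per 100 bases, and the promoters of Rprm, Dact2, Fzd7 and Galnt13 lie between 6.33 and 9.33.

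Part of the sequence is given as N, the letter for a base that is masked or unknown, in 3 of the 7 peaks, against 20.5% of the 117. In the Fzd7 peak 99 of 350 letters are N and are followed directly by a run of 17 bases of alternating g and t, which opens the sequence shown. The Dact2 peak begins with 25 such letters followed by an adenine-rich stretch with a run of 12 adenines, and the Pcdh20 peak begins with 11. Fzd7 and Pcdh20 are 2 of the 3 peaks higher in CIH, and an N is found in 30.0% of the authors' sequences for CIH and in 15.6% for RA. Whether repeats beside the peaks have a part in their calls was not tested.

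Short motifs were searched on both strands in the first 250 letters of the 112 peaks with at least that many. The TCF/LEF core TCAAAG, at which the transcription factors of Wnt signalling bind, was in none of the 7 peaks and in 20.5% of the 112. Of the letters searched, 99 in the Fzd7 peak, 25 in the Dact2 peak and 11 in the Pcdh20 peak are N and could hold no match. The E-box CACGTG was in none of the 7 and in 0.893% of the 112. The repeat GAGAG was in 4 of the 7 and in 44.6% of the 112, and the repeat ACACAC in 3 of the 7, those of Fzd7, Dact2 and the Rprm/Galnt13 peak higher in CIH, and in 20.5% of the 112. Matches of different motifs may share bases at their ends. These matches describe letters and not binding.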

How the data were processed

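ChIP-Seq libraries of H3K27me3 and H3K9ac from aorta macrophages of CIH and RA mice were compared by the authors, who deposited 1 list of differential peaks per mark. The submitters' processing notes name MACS2 2.1.0, BWA 0.7.12, Trimmomatic 0.32, bedtools 2.23.0, Picard 1.121 and SAMtools 1.2 and the build mm9. Regions of low complexity and on a blacklist had been removed, and calls of more than 1 tool combined. The deposited score is 1000 in every row and was not used. Other values in the files are positions and a sign, whose direction was read from the authors' supplement, where the name, position and direction of all 117 H3K27me3 and 483 H3K9ac peaks held were those of the lists. Counts per peak and total reads were not used here, so no depth is given.

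Members, gene lists, markers and motifs were chosen with earlier results of these data known. Peaks were matched by name, and the pairing with genes and the sequences were taken from the supplement, with at most 400 letters a peak. Their strand was set from 160 RefSeq promoter windows of GRCm38 that shared 40 letters with a peak, all on the plus strand. RefSeq otherwise gave gene names and gene order only. Distances run between nearest edges, and at least 1 shared base counts as overlap. Other overlap rules, windows and width limits were tried as alternatives. The functions were tested on simulated intervals, and Python 3.11.15 and pandas 2.3.3 were used. The genes named by rule are the 7, those sharing their peaks, and members of the 6 lists with a peak. Irx2 and Irx4 are named as neighbours, Mertk as a marker, and Mixl1, Pou2f2, Homez, Foxl1 and Tbx15 were chosen after their values were seen. The H3K9ac pairing is held in part, and none of the 10 nearby H3K9ac peaks is named in it. Some paired genes are not reported here.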

Additional observations from a re-analysis of the deposited data

How the results depend on the processing

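The overlap with H3K9ac held for 3 of the 7 peaks at 1 shared base (22.6% of the whole list). The count was also 3 with at least 50% of the peak covered (21.9%) and with H3K9ac peaks widened by 500 bp. The number of peaks with an H3K9ac differential peak nearby was 6 within 50 kb (57.5% of the whole list). It was 5 within 20 kb (42.5%), where Irx1 was lost, and 6 within 100 kb (76.0%). It was 4 with only H3K9ac peaks over 250 bp (52.1%), where Irx1 and Dact2 were lost. With distances between centres it was 6. The share of the whole list was not computed for this setting or for the widened peaks, so nothing is read from those counts. The nearest H3K9ac peak kept the direction of the H3K27me3 peak for all 7 with only the wider H3K9ac peaks, a setting chosen after seeing the data (63.7% of the list), but for Dact2 that peak lay 291.45 kb away. The median GC content of the 7 peaks was 45.6%, and 43.9% with N kept in the total. No replicate could be left out, and no paired analysis was possible because each mark had 1 library per exposure.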

Other observations

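Other regulators of development were paired with H3K27me3 peaks and were picked after their names and directions had been seen. Msx1 and Foxl1, a homeobox and a forkhead factor gene, had peaks higher in RA of 450 and 400 bp, that of Foxl1 also paired with 1700018B08Rik, on no H3K9ac peak, with the nearest 232.2 and 2.5 kb away and higher in RA. Mixl1, a homeobox gene of mesendoderm, and Tbx15, a T-box gene of skeletal development, had peaks higher in CIH of 250 bp each that lie on no H3K9ac peak. The Mixl1 peak is also paired with Acbd3 and the Tbx15 peak with Spag17. Their nearest H3K9ac differential peaks, 14.5 and 22 kb away, were higher in RA, the other direction. The nearest to the Msx1 and Foxl1 peaks, and to each of the 7 peaks described above, had the direction of the peak, as for 67.8% of the whole list. The 3 of the 7 that were higher in CIH lie on an H3K9ac peak, unlike the Mixl1 and Tbx15 peaks, so these are not like for like.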
